A study of Mus musculus with 6 samples.

Results

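The Myc, Max and Mxd network is a set of basic helix-loop-helix leucine zipper genes, taken here as 10 genes chosen by symbol (Myc, Mycn, Mycl, Max, Mxd1, Mxi1, Mxd3, Mxd4, Mnt and Mga) out of 47606 genes in the deposited tables. All 10 were found, and 9 had a mean of at least 1 FPKM (a fragment count divided by transcript length and by library size) over the 6 libraries, which put them among 12929 genes tested. The tenth, Mycl, lay under that level. RNA was sequenced from mouse 32D cells, a myeloid progenitor line that depends on interleukin 3 and was kept in 1 ng/mL of it. They expressed dCas9-KRAB, in which a repressor domain is joined to cleavage-dead Cas9, and received lentivirus with guide sg2 (2 libraries), guide sg5 (2 libraries) or an empty vector (EV, 2 libraries) before a week in puromycin. Every group, EV included, thus carries dCas9-KRAB and went through the same selection. The subject, by the title of the series, is an enhancer of CEBPE. C/EBP epsilon is a transcription factor of late granulocyte development that is tied to exit from the cell cycle.

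The network works through partners. MYC, N-MYC and L-MYC bind the DNA sequence called the E-box as pairs with MAX and activate genes of growth and division. The MXD proteins, MXI1, MNT and MGA also pair with MAX, bind the same sites and recruit corepressors. In blood cells, MYC is high in dividing progenitors, while MXD1 is known to increase as granulocytes mature.

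The E-box is the site that the proteins of the network compete for, so the windows below show where it stands in their own promoters. RefSeq promoter windows (GRCm38.p6, 250 bases before to 50 after the start) were given for 9 of the 10 genes in 11 windows, and Myc is named only. The E-box CACGTG, which reads alike on both strands, was found in the windows of Max, Mnt and Mxd4, and 7.15% of 32851 windows of the same length hold it. In the lines below it is in capitals, each sequence runs 5′ to 3′ on the gene's own strand, and positions count from the transcription start.
Max (chr12:76962224-76962273, minus strand, E-box at -3): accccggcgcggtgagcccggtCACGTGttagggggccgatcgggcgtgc
Mnt (chr11:74830779-74830828, plus strand, E-box at -123): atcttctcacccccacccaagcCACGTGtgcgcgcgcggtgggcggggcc
Mxd4 (chr5:34187902-34187951, minus strand, E-box at -219): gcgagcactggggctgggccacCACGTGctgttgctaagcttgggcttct
The letters TTTGGCGC, a form of the site bound by E2F factors at S-phase genes, were found in the Mycn window at -183 and at -168. On either strand they occur in 0.514% of all windows. The stretch is shown because Mycn had the largest difference of the network between a guide and EV, with the TTTGGCGC matches in capitals.
Mycn (chr12:12941975-12942041, minus strand): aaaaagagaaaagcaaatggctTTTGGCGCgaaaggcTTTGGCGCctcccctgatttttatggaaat
The related E-box form CACGCG, on either strand, was in the windows of Mga and Mycl, against 9.27% of all windows. A C/EBP core, TTGCNNAA on either strand, was in that of Mxd4 alone, against 10.8% of all windows. No match to these 4 motifs was in the windows of Mxd1, Mxi1 or Mxd3. The motifs were chosen with the expression values known, they do not overlap each other at the places shown, and a match describes the letters only.

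Each library lists between 21239 and 21867 genes above 0, and the implied depth lies between 31000000 and 44700000 fragments. Cebpe measured 18.7 and 14.4 FPKM in sg2 replicates 2 and 1, 22.7 and 19.4 FPKM in sg5, and 100.4 and 42.0 FPKM in EV, so every guide library lay below both EV libraries. S100a9, a calprotectin subunit gene of neutrophils, measured 2.63 ± 1.21 FPKM with guides (SD, n = 4) and 114 ± 22.2 FPKM in EV (SD, n = 2). S100a8, its partner gene, measured 1.90 ± 0.90 FPKM with guides and 41.3 ± 12.9 FPKM in EV. Of the 10 myeloid progenitor markers Prtn3, Spi1, Ptprc, Il3ra and Csf2rb lay at 33.5 FPKM or more in every library. Ctsg lay between 30.5 and 119 FPKM, Cebpa between 32.2 and 216 FPKM and Mpo between 12.3 and 151 FPKM, while Kit was listed at 0 in all 6 and Elane lay between 1.40 and 2.50 FPKM. Of the 11 genes on a list of Cebpe and granulocyte maturation genes 8 were tested, all had negative differences between guides and EV, and the median was -2.29. None was called without the replicate block and 2 were called with it. Olfm4, a neutrophil granule gene of this list, measured 1.00 ± 0.69 FPKM with guides and 8.10 ± 1.84 FPKM in EV. Markers of lymphoid cells summed to at most 2.18 FPKM, the 5 erythroid markers to between 12.8 and 30.3 FPKM with guides and between 15.9 and 21.4 FPKM in EV, and Epcam, Cd3e and Hbb-bt were listed at 0 in every library. Of the stromal, endothelial and epithelial markers Pecam1, which myeloid cells also express, lay between 144 and 268 FPKM. The 7 mast cell and basophil markers, led by Fcer1a, the IgE receptor gene, summed to between 1853 and 3162 FPKM with guides and between 1169 and 2653 FPKM in EV. In each number the EV library had the lowest sum. It was 2653 FPKM in number 2, where the highest was 3162, and 1169 FPKM in number 1, where the highest was 2704. Of the 6 tested, 5 had positive and 1 a negative difference between guides and EV (median 0.54, 0 called). All 4 guide libraries lay above the EV library of their number in 4 of them and below in 0, against 12.5% of all tested genes each way. The part of these markers in the results below was not tested. The second sg5 library is sg5 by its title but sg2 by its source name and genotype. The title was followed, and a swap between the guides would leave the guides-against-EV test as it is.

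The first principal component of the 6 libraries, with 55.8% of the variance, separated the replicate numbers and not the groups. Of the 12929 genes, 47.1% were called between numbers 2 and 1 in a fit with the group as a covariate, against 0 between guides and EV. The labels do not say what the number stands for. Genes under 200 nt held between 15.4% and 21.5% of the summed FPKM in number 2 and between 6.77% and 9.67% in number 1. For that reason guide values of the members are given beside the EV library of the same number. Some other genes are given as group means, and their SDs include the difference between numbers. In bulk RNA, fewer cells of a type and less RNA per cell cannot be told apart.

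By mean level per transcript length over the 6 libraries, Max came highest at 36.6 FPKM and was followed by Mxd4 at 28.8, Mxd3 at 27.2 and Myc at 21.4 FPKM. Then came Mxi1 at 19.04, Mnt at 13.6, Mga at 13.0, Mxd1 at 8.90 and Mycn at 7.97 FPKM. Neighbours in this order overlapped in their ranges over the libraries, with the exception of Mycn and Mycl, which was listed at 0 in 5 libraries. MAX, the shared partner, thus had the most abundant transcript of the set by the mean. In sg2 replicate 2, Mxd3 at 35.04 and Mxd4 at 34.5 FPKM lay above Max at 33.4 FPKM. The 6 repressor transcripts together measured between 2.30 and 3.82 times the Max level in every library.

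Myc, the main activator, had lower values in each guide library than in the EV library of the same number. It lies on GRCm38 chromosome 15, 61985391 to 61990374, plus strand (ENSMUSG00000022346). It measured 15.2 and 25.6 FPKM in sg2 replicates 2 and 1, 12.3 and 19.9 FPKM in sg5 replicates 2 and 1, and 21.1 and 34.5 FPKM in EV replicates 2 and 1. EV replicate 2 lay below sg2 replicate 1, so the groups overlapped. Within numbers 2 and 1, sg2 stood at 72.1% and 74.3% of EV, and sg5 at 58.5% and 57.7%. Each guide thus stood at a similar share of EV in both numbers. The share of tested genes with all 4 guide libraries below the EV library of their number was 12.5%, so the order alone is common. The higher of the 2 Myc ratios of each guide was then taken as a cut. Genes at or below it in both numbers made up 2.07% for sg2 and 1.21% for sg5.

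The limma test of guides against EV did not call Myc. The difference in log2(FPKM + 1) was -0.59 (SE 0.33, limma unadjusted p 0.123, adjusted p = 1.00), and it was -0.59 in number 2 and -0.59 in number 1. With the replicate number as a block the limma p was 0.00485 and the adjusted p 0.576. For sg2 against EV the difference was -0.43 (SE 0.40) and for sg5 against EV -0.75 (SE 0.40), neither called, and these comparisons share their EV libraries. The blocked limma adjusted p was 0.506 for sg2 and 0.212 for sg5. The difference of sg5 from sg2 itself was -0.32 (SE 0.40) and not called, with an adjusted p of 0.854 in the blocked limma fit. Fits against EV or between guides that leave out 1 library, here and below, carry no block. The numbers are then unequal between the groups compared, so part of the difference between numbers enters these values. Without EV replicate 1 the difference of guides from EV was -0.25, and without EV replicate 2 it was -0.93. For sg2 it was -0.072 without sg2 replicate 2, -0.088 without EV replicate 1, -0.77 without EV replicate 2 and -0.79 without sg2 replicate 1. For sg5 it was -0.40 without EV replicate 1. Without sg5 replicate 2, the library with the conflicting label, the differences were -0.43 for guides and -0.42 for sg5.

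**Figure D1:**
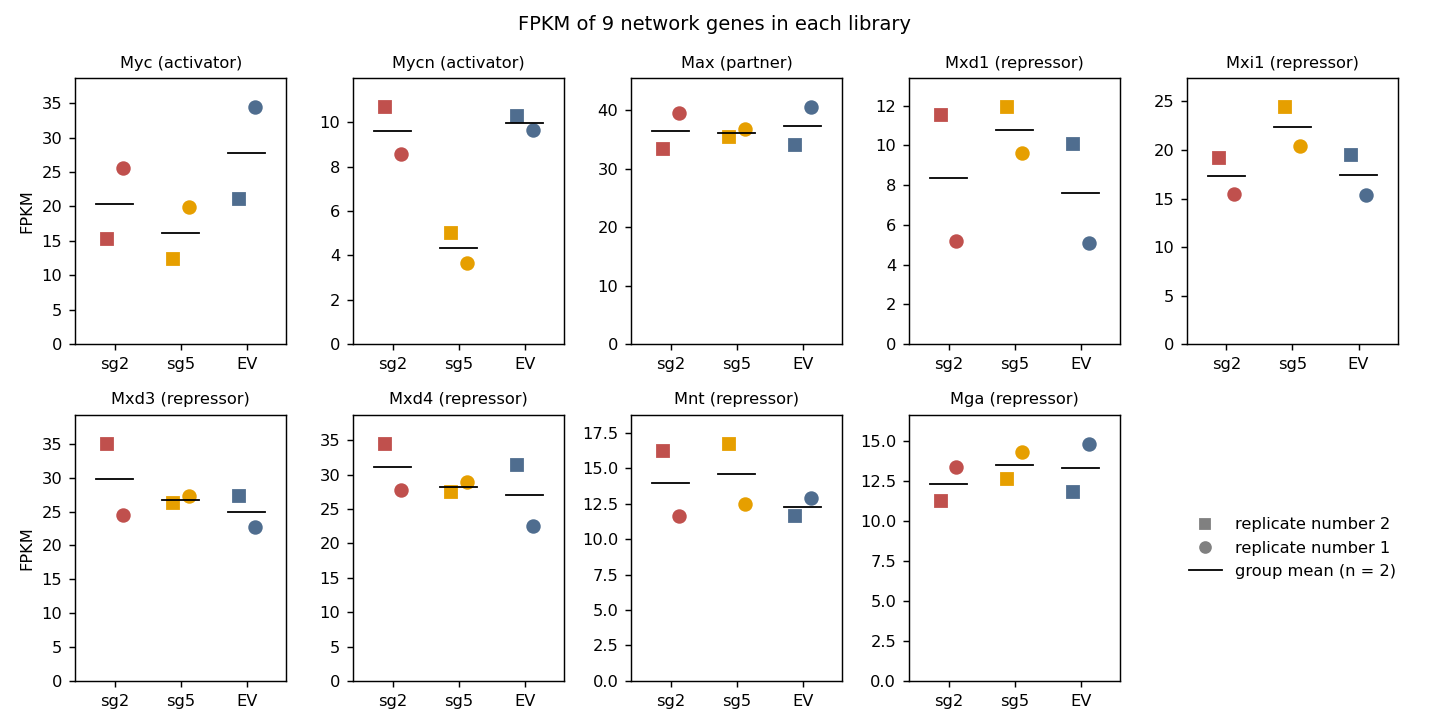
FPKM of the 9 tested network genes, for sg2, sg5 and EV, with squares for replicate number 2, circles for number 1 and lines for the group mean (n = 2). Myc lay lower in number 2 than in number 1 of every group, and Mycn lay at 4.997 and 3.66 FPKM in sg5 replicates 2 and 1, under all other libraries.

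Mycn, which encodes N-MYC, was lowest in the sg5 libraries. It lies on chromosome 12, 12936093 to 12941914, minus strand (ENSMUSG00000037169), and its promoter stretch with the TTTGGCGC matches is printed above. It measured 4.997 and 3.66 FPKM in sg5 replicates 2 and 1, 10.7 and 8.56 FPKM in sg2 replicates 2 and 1, and 10.3 and 9.66 FPKM in EV replicates 2 and 1. Both sg5 libraries lay under the other 4, and sg2 overlapped with EV. In numbers 2 and 1, sg5 stood at 48.7% and 37.9% of EV and sg2 at 104% and 88.7%. The log2 difference was -1.05 (SE 0.21) for sg5 against EV (limma unadjusted p 0.00401, adjusted p = 1.00) and -0.05 (SE 0.21) for sg2. For sg5 against sg2 it was -0.9997 (SE 0.21, limma unadjusted p 0.00498, adjusted p = 1.00). With the replicate block the limma adjusted p was 0.212 for sg5 against EV and 0.388 for sg5 against sg2. Neither passed, and 1 of the sg5 libraries has the conflicting label. Without sg5 replicate 2 the difference of sg5 from EV was -1.23. Over both guides the difference from EV was -0.55 (SE 0.38), and -0.32 without sg5 replicate 1.

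Mycl, which encodes L-MYC and lies on chromosome 4, 122995652 to 123002485, plus strand (ENSMUSG00000028654), was listed at 0 in 5 libraries and at 0.054 FPKM in sg2 replicate 2. On its longest transcript, 3 fragments would give between 0.0203 and 0.0293 FPKM, a limit that covers counting error only. The summed FPKM of the activators therefore rests on Myc and Mycn.

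Max lies on chromosome 12, 76937269 to 76962201, minus strand (ENSMUSG00000059436), with an E-box next to its RefSeq start as printed above. It measured 33.4 and 39.6 FPKM in sg2 replicates 2 and 1, 35.4 and 36.8 FPKM in sg5, and 34.0 and 40.6 FPKM in EV. The groups overlapped throughout. The log2 difference of guides from EV was -0.04 (SE 0.13), which was 0.09 without EV replicate 1 and -0.16 without EV replicate 2. Within numbers 2 and 1 it was 0.01 and -0.09.

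Of the repressors, Mxd1, which encodes MAD1 and is the member best known from granulocyte maturation, was higher in all 4 guide libraries than in the EV library of its number. It lies on chromosome 6, 86647042 to 86669161, minus strand (ENSMUSG00000001156). It measured 11.5 and 5.17 FPKM in sg2 replicates 2 and 1, 11.9 and 9.59 FPKM in sg5, and 10.1 and 5.09 FPKM in EV. The sg2 value in number 1 stood at 102% of EV, while sg5 stood at 189% there. In number 2, sg2 stood at 114% and sg5 at 118%. The log2 difference of guides from EV was 0.30 (SE 0.38, limma adjusted p = 1.00), and it lay between -0.13 without EV replicate 1 and 0.74 without EV replicate 2. For sg5 it was 0.51 (SE 0.45) and for sg2 0.10 (SE 0.45), and the sg5 value was 0.37 without sg5 replicate 2, 0.078 without EV replicate 1 and 0.94 without EV replicate 2. The share of tested genes above EV in all 4 libraries was 12.5%.

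Mxi1, a second MXD-type repressor, was highest in sg5 within each number. It lies on chromosome 19, 53310518 to 53375810, plus strand (ENSMUSG00000025025). It measured 24.4 and 20.4 FPKM in sg5 replicates 2 and 1, 19.2 and 15.4 FPKM in sg2, and 19.5 and 15.3 FPKM in EV. In numbers 2 and 1, sg5 stood at 126% and 133% of EV, and sg2 at 98.5% and 101%. The log2 difference was 0.35 (SE 0.21) for sg5 against EV and 0.36 (SE 0.21) for sg5 against sg2. Neither passed, with limma adjusted p values of 1.00, and of 0.519 and 0.854 with the replicate block. The difference of sg5 from EV was 0.22 without sg5 replicate 2 and 0.19 without EV replicate 1. The difference of sg5 from sg2 was 0.23 without sg5 replicate 2 and 0.21 without sg2 replicate 1.

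Mxd3, which in other mouse tissues is expressed in cycling cells, and Mxd4 had the same order of groups within each number. They lie on chromosome 13, 55325168 to 55329823, minus strand (ENSMUSG00000021485) and chromosome 5, 34173883 to 34187720, minus strand (ENSMUSG00000037235). Mxd3 measured 35.04 and 24.5 FPKM in sg2 replicates 2 and 1, 26.2 and 27.3 FPKM in sg5, and 27.3 and 22.7 FPKM in EV. Mxd4 measured 34.5 and 27.7 FPKM in sg2, 27.5 and 29.0 FPKM in sg5, and 31.4 and 22.6 FPKM in EV. In both genes sg2 came highest and sg5 lowest in number 2, while sg5 came highest and EV lowest in number 1. The log2 differences of guides from EV were 0.16 (SE 0.18) for Mxd3 and 0.14 (SE 0.18) for Mxd4. The value of Mxd3 was 0.036 without EV replicate 1, 0.059 without sg2 replicate 2 and 0.29 without EV replicate 2. The value of Mxd4 was -0.09 without EV replicate 1, 0.072 without sg2 replicate 2 and 0.37 without EV replicate 2.

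Mnt, a broadly expressed antagonist of MYC, had another order in number 2 than in number 1. It lies on chromosome 11, 74830920 to 74845725, plus strand (ENSMUSG00000000282). It measured 16.2 and 11.6 FPKM in sg2 replicates 2 and 1, 16.7 and 12.5 FPKM in sg5, and 11.6 and 12.9 FPKM in EV. Both guides stood above EV in number 2, at 140% and 144%, and below it in number 1, at 90.2% and 96.9%. The log2 difference of guides from EV was 0.47 in number 2 and -0.09 in number 1, and 0.19 (SE 0.18) over both. Over both it was 0.11 without sg5 replicate 2 and 0.12 without EV replicate 2.

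Mga, the largest protein of the set, which carries a T-box besides its helix-loop-helix, lies on chromosome 2, 119897228 to 119969581, plus strand (ENSMUSG00000033943). It measured 11.2 and 13.4 FPKM in sg2 replicates 2 and 1, 12.6 and 14.3 FPKM in sg5, and 11.8 and 14.9 FPKM in EV. The 4 guide libraries lay between 90.0% and 107% of the EV library of their number. The log2 difference was -0.04 (SE 0.15), and it was 0.11 without EV replicate 1 and -0.20 without EV replicate 2.

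**Figure D2:**
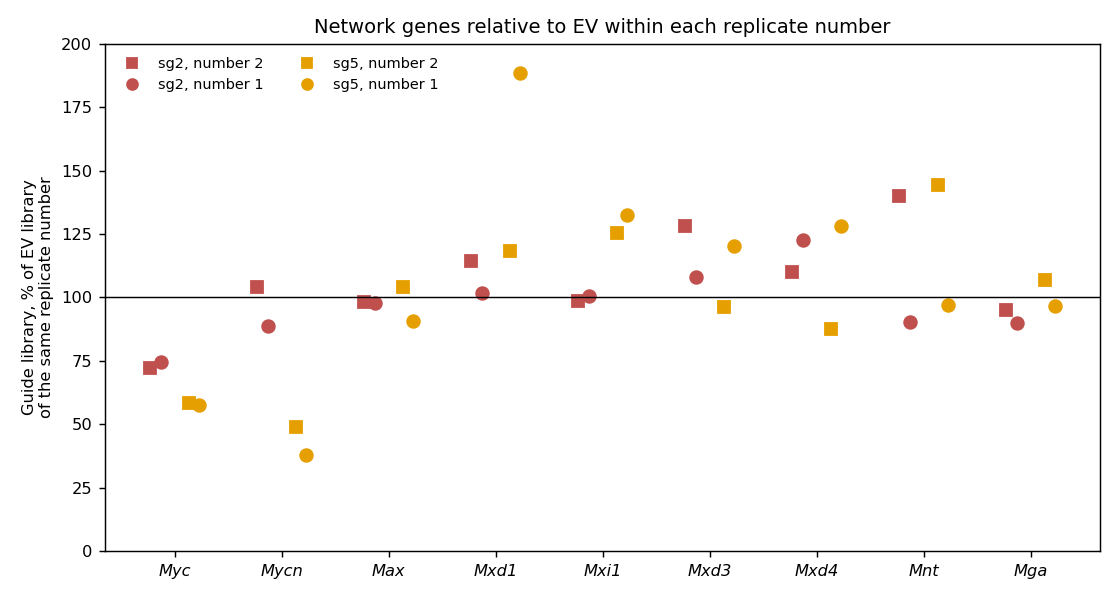
Each guide library as a percentage of the EV library of the same replicate number, for 9 network genes, with red for sg2, orange for sg5, squares for number 2 and circles for number 1. Myc lay between 57.7% and 74.3%. Mycn lay at 48.7% and 37.9% in sg5 and at 104% and 88.7% in sg2, in numbers 2 and 1. Max lay between 90.7% and 104% and the repressors between 87.6% and 189%, so Mycn in sg2 lay within the range of the repressors.

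Counted over the 9 tested members, 0 were called between guides and EV at an adjusted p under 0.05 in limma, the background being 0 of 12929 genes. At an unadjusted p under 0.05 there were 0 members too, against 1.31% of all genes. In 0 members did all guide libraries lie on one side of both EV libraries, while 2.56% of tested genes lay lower and 2.54% higher in this way (5.1% in all). With the replicate block 1 member, Myc, had an unadjusted limma p under 0.05, against 5.72% of all genes, and 5 genes outside the network were called (0.0387%).

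For sg2 against EV, 0 members were called, against 0.00773% of all genes, and 0 had an unadjusted limma p under 0.05, against 1.16%. With the block 0 were called, against 0.0232%, and 1, Myc, had an unadjusted p under 0.05, against 4.3%. For sg5 against EV, 0 were called and 1, Mycn, had an unadjusted p under 0.05, against 1.36% of all genes. With the block 0 were called, against 0.0155%, and 3 members (Myc, Mycn and Mxi1) had an unadjusted p under 0.05, against 8.04%. For sg5 against sg2, 0 members were called, and 1, Mycn, had an unadjusted p under 0.05, against 0.859% of all genes. With the block it was so for the same 3 members, against 5.29%. The median log2 difference of guides from EV was 0.14 over the 9 members and -0.0046 over all tested genes.

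Activators and repressors were then set against each other in each library as a ratio of summed FPKM (Myc, Mycn and Mycl over Mxd1, Mxi1, Mxd3, Mxd4, Mnt and Mga). The ratio was 0.203 and 0.349 in sg2 replicates 2 and 1, 0.145 and 0.208 in sg5 replicates 2 and 1, and 0.281 and 0.472 in EV replicates 2 and 1. It was lowest in sg5 and highest in EV within each number. Within numbers 2 and 1, sg2 stood at 72.4% and 74.0% of EV, and sg5 at 51.7% and 44.1%. Set against sg2 in numbers 2 and 1, sg5 stood at 71.4% and 59.6%. The ratio averaged 0.226 ± 0.0868 with guides (SD, n = 4) and 0.376 ± 0.135 in EV (SD, n = 2), and sg2 replicate 1 lay above EV replicate 2, so the groups overlapped. As a mean of log2 ratios, guides were at -0.76 relative to EV, and at -0.38 without EV replicate 1.

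The activator sum was 26.0 and 34.2 FPKM in sg2 replicates 2 and 1, 17.3 and 23.5 FPKM in sg5, and 31.3 and 44.1 FPKM in EV. The repressor sum was 128 and 97.8 FPKM in sg2, 119 and 113 FPKM in sg5, and 112 and 93.5 FPKM in EV. In both numbers each guide library thus had a lower activator sum and a higher repressor sum than its EV library. Myc stood at 1.32 and 4.96 times Mxd1 in sg2 replicates 2 and 1, at 1.03 and 2.07 times in sg5, and at 2.09 and 6.77 times in EV. These ratios are descriptions of chosen genes and carry no test.

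**Figure D3:**
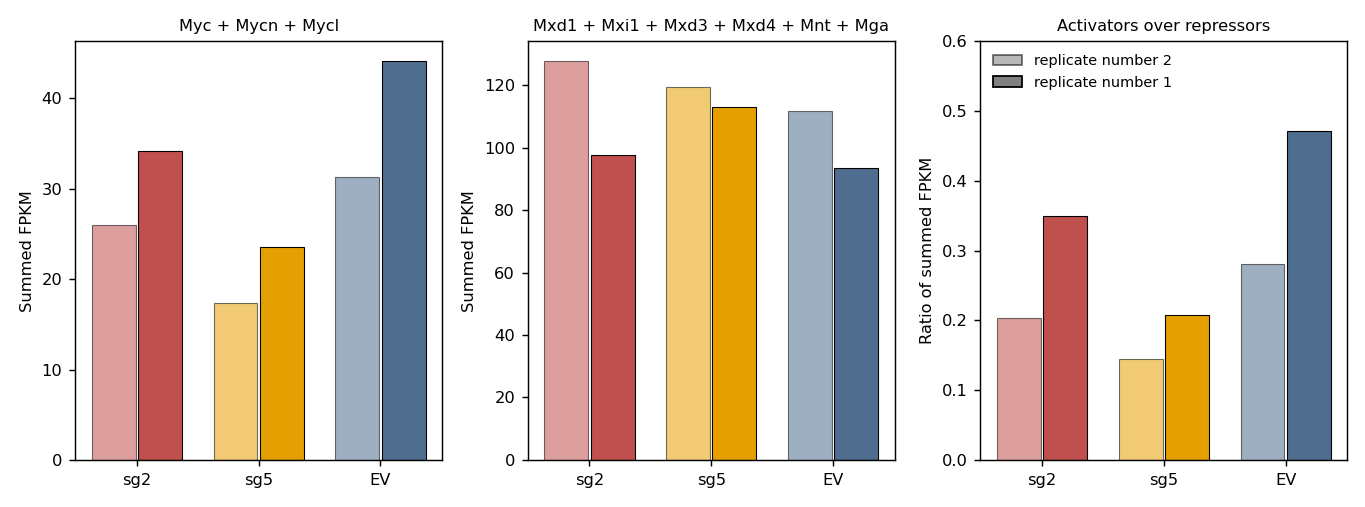
Summed FPKM of the activators (left), of the repressors (middle) and their ratio (right) in sg2, sg5 and EV, with pale colour for replicate number 2 and full colour for number 1. The ratio is lowest in sg5 and highest in EV within each number, and it is lower in number 2 than in number 1 within each group.

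Between replicate numbers some members passed the test. Of the 9 tested members limma called 4, against a background of 47.1% of all genes, and a share of this size is near that background. The same 4 had an unadjusted limma p under 0.05, against 56.3% of all genes. Myc and Mga were lower in number 2, where 26.9% of genes were called lower, and Mxd1 and Mxi1 were higher, where 20.2% were called higher. Myc in number 2 stood at 0.594 times its number 1 level in sg2, 0.620 times in sg5 and 0.612 times in EV, a log2 difference of -0.68 (SE 0.06, limma adjusted p = 0.00282). Leaving out any library kept the Myc call, with differences between -0.70 and -0.67.

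Mxd1 was at 2.23, 1.24 and 1.98 times its number 1 level in sg2, sg5 and EV, a log2 difference of 0.72 (SE 0.16, limma adjusted p = 0.0233). The call was lost without an EV library (limma adjusted p = 0.123 without EV replicate 1 and 0.126 without EV replicate 2) and without an sg2 library (0.113 and 0.115 without sg2 replicates 1 and 2). Whether the smaller ratio in sg5 differs from the other groups was not tested. Mxi1 had a log2 difference of 0.29 (SE 0.06, limma adjusted p = 0.0208) and Mga of -0.24 (SE 0.07, limma adjusted p = 0.0484). Each of these calls was lost when any 1 of the 6 libraries was left out, with limma adjusted p between 0.0621 and 0.108 for Mxi1 and between 0.0944 and 0.196 for Mga.

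All 3 libraries of number 2 lay under all 3 of number 1 for Max and Mga and above them for Mxd1, whereas 34.1% and 27.0% of tested genes did so in these directions and 61.1% in either. Max had a log2 difference of -0.18 (SE 0.07, limma adjusted p = 0.0966) and was not called. The ratio of activators to repressors in number 2 was 0.582 times that in number 1 in sg2, 0.697 times in sg5 and 0.595 times in EV. The ratio was thus lower in number 2 in all 3 groups. The share of short genes given above moved with the number too, and some markers of cell types were called between numbers. The mast cell and basophil markers summed to between 2653 and 3162 FPKM in number 2 and between 1169 and 2704 FPKM in number 1, and these ranges overlapped. Of the 6 tested, limma called Prss34, a basophil protease gene, and Cpa3, a mast cell protease gene, higher in number 2, by 4.35 (SE 0.24, limma adjusted p = 0.00179) and 1.10 (SE 0.15, limma adjusted p = 0.00587). Tpsb2 lay at 0 in 4 of the 6 libraries. Of the 9 tested myeloid progenitor markers limma called Cebpa higher and Mpo and Csf2rb lower. Over all genes 20.2% were called higher and 26.9% lower, so such calls are common.

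Mpo, the myeloperoxidase gene of granulocyte precursors, measured 12.3 and 41.5 FPKM in sg2 replicates 2 and 1, 14.8 and 123 FPKM in sg5, and 13.0 and 151 FPKM in EV, with a difference of number 2 from number 1 of -2.69 (SE 0.35, limma adjusted p = 0.0056). The myeloid progenitor list as a whole summed to between 822 and 1003 FPKM in number 2 and between 773 and 1090 FPKM in number 1. The part of the short genes and of these markers in the network's values was not tested.

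The genes most like Myc across the 6 libraries were S100a5, Thop1, 3110082I17Rik, St3gal2 and Atic. Likeness was the root mean square difference between log2(FPKM + 1) profiles after each was centred on its mean, over 6 libraries and 9901 candidates with a mean of at least 5 FPKM. The distances lay between 0.103 for S100a5 and 0.151 for Atic, with a median of 0.452 over all candidates. S100a5 measured 7.80 and 12.7 FPKM in sg2 replicates 2 and 1, 5.89 and 9.98 FPKM in sg5, and 11.4 and 14.8 FPKM in EV. Atic, an enzyme gene of purine synthesis, measured 27.5 and 46.8 FPKM in sg2, 22.2 and 29.5 FPKM in sg5, and 29.1 and 53.4 FPKM in EV. Both had the Myc order, with sg5 lowest and EV highest within each number. These genes were chosen for likeness to Myc over the same 6 libraries, so this order follows from the choice.

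Genes that MYC is known to activate had mostly negative differences between guides and EV, and none passed the test. Of 30 listed genes, all were tested, 27 had negative and 3 positive log2 differences from EV, and 0 were called. Over all 12929 tested genes 6632 were negative and 6297 positive. The median was -0.18, against -0.0046 over all tested genes. It was -0.02 in number 2 and -0.35 in number 1, and -0.30 for sg5 and -0.07 for sg2. Polr1b, a subunit gene of RNA polymerase I, measured 5.48 ± 0.59 FPKM with guides (SD, n = 4) and 7.62 ± 1.02 FPKM in EV (SD, n = 2), with a log2 difference of -0.41 (SE 0.15) and all 4 guide libraries below EV. Over all tested genes 2.56% lay lower in this way. Polr1b was named for its small p, which favours such an order. Nop16, a ribosome biogenesis gene, measured 19.7 ± 3.44 FPKM with guides and 26.0 ± 5.37 FPKM in EV (-0.38, SE 0.20). Its difference was -0.18 without EV replicate 1 and -0.59 without EV replicate 2. Tert, the telomerase gene, measured 1.37 ± 0.53 FPKM with guides and 0.77 ± 0.02 FPKM in EV (0.40, SE 0.29, and 0.25 without sg5 replicate 2).

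Between numbers, limma called 21 of the 30 lower and 2 higher in number 2, against 26.9% and 20.2% of all genes, with a median of -0.73 against -0.04 over all tested genes. The genes that were higher were Ccnd2, a cyclin D gene, and Shmt1, an enzyme gene of folate metabolism. Among the lower ones were the nucleolar genes Npm1, Ncl and Fbl, the chaperonin genes Hspd1 and Hspe1, and Cdk4, a kinase gene of G1. These were picked from the list after their values were seen.

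Genes that MYC is known to repress had a median log2 difference of 0.13 between guides and EV over 8 tested of 11 listed, with 6 positive, 2 negative and 0 called. Ndrg1, a hypoxia-responsive gene, measured 102 and 56.0 FPKM in sg2 replicates 2 and 1, 112 and 78.4 FPKM in sg5, and 45.3 and 54.9 FPKM in EV. All guide values lay above both EV values, and the log2 difference was 1.23 in number 2, 0.27 in number 1 and 0.75 (SE 0.30) over both. Over all tested genes 2.54% lay higher in this way, and Ndrg1 too was named for its small p. Cebpa, a C/EBP factor gene of granulocyte commitment, measured 216 and 44.3 FPKM in sg2, 208 and 70.2 FPKM in sg5, and 136 and 32.2 FPKM in EV. Its difference was 0.71 (SE 0.86), and it lay between -0.31 without EV replicate 1 and 1.73 without EV replicate 2.

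Genes of cell cycle exit (CDK inhibitors, pocket proteins and anti-proliferative genes) had a median of 0.12 over 10 tested of 13 listed, with 9 positive, 1 negative and 0 called. The median was 0.11 in number 2 and 0.19 in number 1. Ccng2, an atypical cyclin gene linked to arrest, measured 42.2 and 70.8 FPKM in sg2 replicates 2 and 1, 42.5 and 80.1 FPKM in sg5, and 31.9 and 58.4 FPKM in EV. It was above the EV library of the same number in all 4 guide libraries, as were 12.5% of all tested genes. Its blocked limma p was 0.00235 and its adjusted p 0.440. Its difference of 0.38 (SE 0.37) was -0.05 without EV replicate 2 and 0.81 without EV replicate 1. Cdkn2d, which encodes the CDK4 inhibitor p19-INK4d, measured 61.3 ± 19.8 FPKM with guides and 51.5 ± 18.9 FPKM in EV, and without EV replicate 1 its difference of 0.24 (SE 0.36) was -0.14. Without EV replicate 2 it was 0.62. Within numbers 2 and 1 the Cdkn2d difference was 0.27 and 0.21. All 4 guide libraries lay above the EV library of their number, as in 12.5% of all tested genes. The blocked limma p was 0.0288 and the adjusted p 0.813. Cdkn1b, which encodes p27-KIP1 and stands on both lists, measured 29.0 ± 3.899 FPKM with guides and 24.6 ± 0.94 FPKM in EV (0.22, SE 0.15, and 0.14 without sg5 replicate 1).

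In number 2 against number 1, limma called 6 of these 10 genes higher and 2 lower, against 20.2% and 26.9% of all genes, with a median of 0.62 against -0.04 over all tested genes. The higher ones included Btg2, an anti-proliferative gene, at 1.70 (SE 0.13) and Cdkn1a, which encodes p21-CIP1, at 1.06 (SE 0.13), both named outside the rule. The lower ones were Ccng2 and Rbl1, a pocket protein gene.

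G1 cyclin, CDK and E2F genes had a median of -0.04 between guides and EV over 16 of 16 tested, with 5 positive, 11 negative and 0 called. E2f8, a repressor-type E2F gene, measured 72.0 ± 6.63 FPKM with guides and 63.2 ± 1.26 FPKM in EV (0.18, SE 0.13). Ccne2, a cyclin E gene, measured 24.0 ± 7.23 FPKM with guides and 27.3 ± 8.95 FPKM in EV (-0.19, SE 0.32, 0.14 without EV replicate 1 and -0.52 without EV replicate 2). E2f3 measured 11.7 ± 1.80 FPKM with guides and 12.5 ± 0.79 FPKM in EV, and its difference of -0.09 (SE 0.16) was -0.011 without sg5 replicate 2.

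The medians of the cofactor lists lay near 0. MYC coactivators had a median of 0.01 over 10 of 10 tested, 5 positive and 5 negative, and Kat5, the acetyltransferase gene TIP60, measured 16.4 ± 1.47 FPKM with guides and 14.5 ± 2.50 FPKM in EV (0.18, SE 0.15). The Kat5 difference was 0.013 without EV replicate 2 and 0.34 without EV replicate 1. Ccnt1, a subunit gene of the elongation factor P-TEFb, and Kat2a, which encodes the acetyltransferase GCN5, had differences of 0.10 (SE 0.16) and -0.09 (SE 0.20), which turned to -0.01 and 0.17 without EV replicate 1. Corepressor genes had a median of -0.04 over 15 of 15 tested, 5 positive and 10 negative. Among them Ring1, Pcgf6 and E2f6 encode partners of MGA in a Polycomb complex. Ring1 measured 6.65 and 7.89 FPKM in sg2 replicates 2 and 1, 4.21 and 2.66 FPKM in sg5, and 10.9 and 7.19 FPKM in EV (-0.72, SE 0.39, and -0.45 without EV replicate 2). Pcgf6 and E2f6 were below the EV library of their number in all 4 guide libraries. They were the 2 of 15 list genes with this order, a share near the 12.5% over all tested genes. Rnf2, L3mbtl2 and Cbx3 of the same list had log2 differences of 0.10, -0.08 and -0.07. Those of Pcgf6 and E2f6 were -0.21 (SE 0.27) and -0.18 (SE 0.13). That of Pcgf6 was -0.027 without EV replicate 2, -0.045 without sg5 replicate 1 and -0.40 without EV replicate 1.

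Genes of MYC protein turnover had a median of 0.01 over 11 tested of 12, 6 positive and 5 negative. Aurka, a mitotic kinase gene whose product stabilises N-MYC, measured 59.1 ± 3.63 FPKM with guides and 53.3 ± 4.76 FPKM in EV (0.15, SE 0.13). Its difference was 0.058 without EV replicate 2 and 0.24 without EV replicate 1. Huwe1, an E3 ligase gene, had -0.18 (SE 0.22), 0.04 without EV replicate 1 and -0.39 without EV replicate 2. Usp36, a deubiquitinase gene, had 0.13 (SE 0.17), and 0.02 without EV replicate 2 and 0.24 without EV replicate 1. In the MLX branch, which pairs with MLX in place of MAX, Mlx and Mlxip were tested and Mlxipl was not. Mlx measured 51.8 and 39.4 FPKM in sg2, 62.3 and 39.6 FPKM in sg5, and 50.2 and 38.2 FPKM in EV. It was above the EV library of the same number in all 4 guide libraries, as were 12.5% of all tested genes. Its difference of 0.11 (SE 0.24) and that of Mlxip of 0.09 (SE 0.36) were -0.08 and -0.24 without EV replicate 1. None of the genes in these 4 lists was called between guides and EV. In number 2 against number 1, limma called 1 coactivator gene higher and 5 lower, 2 corepressor genes higher and 6 lower, 1 turnover gene higher and 5 lower, and both Mlx and Mlxip higher. These lists have 10, 15, 11 and 2 tested genes, and over all genes 20.2% were called higher and 26.9% lower, 47.1% in all.

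**Figure D4:**
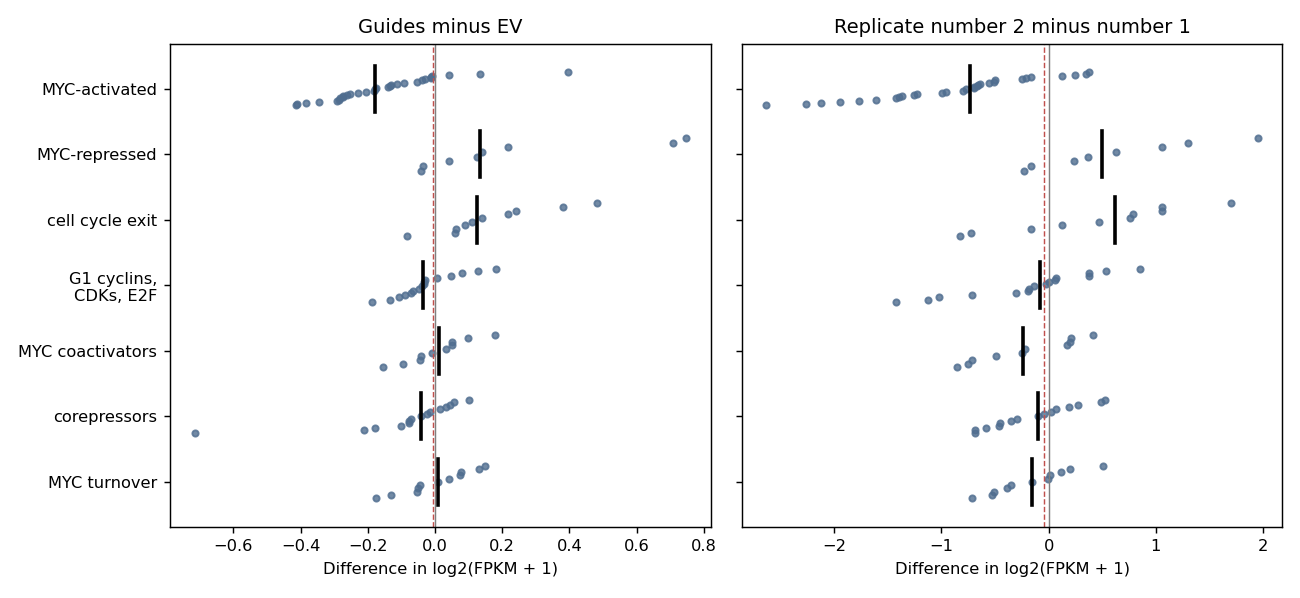
Difference in log2(FPKM + 1) for each tested gene of 7 gene lists, guides minus EV on the left and replicate number 2 minus number 1 on the right, with black bars for list medians and a dashed line for the median of all tested genes. The MYC-activated list has medians of -0.18 (left) and -0.73 (right), and the axes differ in range.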

How the data were processed

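The authors deposited 1 table of FPKM values per library, with 47606 genes each. Per the submitters' processing notes, kallisto 0.43.0 and DESeq2 were used and the builds were GRCm38 and mm10, with no roles stated, and the step from kallisto to FPKM is not given in the sources used here. Libraries came from a TruSeq kit, per the labels' protocols. The deposited position column puts 100% of genes on chromosome 1 and was not used. Positions come from GENCODE M21 (GRCm38), matched by ID for 47187 genes.

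Depth was implied from low values of 752 single-transcript genes over 4000 nt, with an assumed fragment length of 200 nt. Between 99 and 147 such values per library were used. The depth kept was the one with the largest share of values at whole fragments within 0.15. That share lay between 91.9% and 98.6%, and since it was maximised it is no check of the depth.

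Genes averaging 1 FPKM or more were tested as log2(FPKM + 1) with limma 3.58.1 in R 4.3.3 (intensity trend, Benjamini-Hochberg over all 12929 genes, threshold 0.05, two-sided). That scale understates changes of low genes. Guides were tested as 4 libraries against 2, single guides in a fit with 3 groups, and replicate number 2 against 1 with group as covariate. The fits were run on simulated data with noise independent between libraries. The only criterion there was a small median error of planted differences, so that run is no check of the calls. Tables and figures used Python 3.11.15, pandas 2.3.3 and matplotlib 3.10.9.

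Same-numbered libraries deviated together: the differences between numbers correlated across genes at 0.611 (EV and sg2), 0.591 (EV and sg5) and 0.583 (sg2 and sg5). The numbers were read as pairing the libraries, from the data and not from the labels. No label says that replicates were separate cultures, so p-values measure the spread between samples, which may be technical.

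Members and lists were chosen with earlier results of these data known. Named were all members, the 3 genes of smallest p per list, Cebpe, S100a8 and S100a9, and the 5 genes most like Myc. Alternatives were the pseudocount, filter, scaling, replicate block and leaving out each library.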

Additional observations from a re-analysis of the deposited data

Results flagged for a closer look

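Mycl stood apart in 1 of the 4 guide libraries. It was listed at 0.054 FPKM in sg2 replicate 2 and at 0 in sg2 replicate 1, both sg5 libraries and both EV libraries. A gap test of 4 values flags about 1 in 20 groups by chance where values vary continuously. With the other guide libraries at 0, any value above 0 is flagged, so that rate does not apply to Mycl.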

How the results depend on the processing

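With the replicate number as a block, limma called 5 genes for guides against EV, 3 for sg2 and 2 for sg5, none of them a member, and the block changed no other call of the network. Without the filter on low values the counts were 6 for guides against EV, 0 for sg2 (1 with the filter), 18 for sg5 and 23 for sg5 against sg2. Leaving out 1 library at a time gave between 0 and 1 genes for guides against EV, 0 for sg2 in each case, and between 3036 (without sg2 replicate 1) and 4277 (without sg5 replicate 2) for number 2 against number 1, where all 6 libraries gave 6089. Where that leaves a group with 1 library, it is assumed to vary like the other groups. The log2 ratio of activators to repressors lay between -1.13 and -0.38 when a library was left out. The numbers were then unequal between guides and EV, so part of the difference between numbers enters these values.

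Some differences that did not pass the test changed sign when 1 library was left out. The fits below carry no replicate block, so leaving out a library of either group leaves the numbers unequal between them. Part of the difference between numbers then enters the value. Causes beyond this were not tested. For guides against EV the lowest and highest values were Max -0.16 and 0.088, Mxd1 -0.13 and 0.74, Mxd4 -0.085 and 0.37, Mga -0.20 and 0.11, Mlx -0.084 and 0.30, and Mlxip -0.24 and 0.41. They were Ccnt1 -0.0076 and 0.20, Kat2a -0.36 and 0.17, Huwe1 -0.39 and 0.043, Cebpa -0.31 and 1.73, Ccng2 -0.047 and 0.81, Cdkn2d -0.14 and 0.62, and Ccne2 -0.52 and 0.14. For sg2 against EV they were Mycn -0.20 and 0.094, Max -0.15 and 0.094, Mxd1 -0.41 and 0.61, Mxi1 -0.17 and 0.16, Mxd3 -0.021 and 0.48, Mxd4 -0.022 and 0.44, Mnt -0.067 and 0.38, and Mga -0.26 and 0.046. For sg5 against EV they were Max -0.17 and 0.082, Mxd3 -0.028 and 0.23, Mxd4 -0.15 and 0.31, and Mga -0.13 and 0.17. For sg5 against sg2 they were Myc -0.67 and 0.043, Max -0.13 and 0.11, Mxd1 -0.097 and 0.92, Mxd3 -0.38 and 0.12, Mxd4 -0.28 and 0.026, and Mnt -0.16 and 0.29.

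Between numbers, the Mxd1 and Mga calls were lost without the filter (limma adjusted p = 0.0786 and 0.0987), and those of Myc and Mxi1 without the group covariate (0.0576 and 0.132). Max passed without the group covariate (0.0461), and Mxd4 passed without either sg5 library (0.0493 and 0.0498). At the implied depth, 3 fragments on 1 kb of transcript give between 0.0671 and 0.0966 FPKM. The limit is lower for longer transcripts, as given above for Mycl, and values under the limit for their length cannot be told from 0.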
